A study of Mus musculus with 10 samples.

Results

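The blood vessels of the mouse ovary were followed through 10 genes that mark endothelial cells or belong to the angiopoietin system. They were Pecam1, Cdh5, Esam, Emcn, Eng and Vwf, whose products lie at the junctions or on the surface of endothelial cells or are stored and secreted by them, the receptors Tek and Tie1, and the ligands Angpt1 and Angpt2. The genes were chosen by name, and each name matched 1 row, so 10 of the 55487 genes in the deposited table are described. Endothelial cells line every vessel and are joined by VE-cadherin, the product of Cdh5. Angiopoietin 1 comes largely from the cells around a vessel and activates the TIE2 receptor, encoded by Tek, which keeps vessels stable, whereas angiopoietin 2 is released by endothelial cells and can oppose it during vessel growth and regression. In the ovary, vessels form and regress in every cycle, around growing follicles and most densely in the corpus luteum.

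The study asked whether CEFFE, a cell-free protein extract of fat tissue, alters the ovaries of aged mice. Whole ovaries were taken from female mice on a C57BL/6J background, with a library for each ovary. The Control group was 8 weeks old (n = 4). The Aged (n = 3) and Aged+CF (n = 3) groups were 11 months old by the sample labels and 10 months old by the study's methods. Aged+CF mice received 200 μL of CEFFE at 3 μg of protein per μL into the tail vein every 2 days for 2 weeks, and by the methods Control and Aged mice received the same volume of saline. All mice had been injected with 10 IU of PMSG, a gonadotropin that drives follicle growth, 48 h before the ovaries were taken. Ovaries are named by group and by the number in their labels.

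The counts on genes summed to 15761789 in the shallowest library and to 21318254 in the deepest. Values are given as CPM, counts scaled to the size of the library after TMM scaling in edgeR, and levels of different genes are compared as the deposited FPKM, which also divides by gene length. Of all genes, 18956 passed the filter on low counts and were tested with the edgeR quasi-likelihood F test, and all 10 members were among them. A gene was called when it differed 1.5-fold or more with a Benjamini-Hochberg adjusted p, taken over all genes tested, below 0.05, and a looser rule with the unadjusted p is given beside it. The 10 most abundant genes held 7.92% of the counts of Aged 33, against 4.02% to 5.94% in the other ovaries, and its TMM factor was 0.871, against 0.970 to 1.05. Within the groups, the libraries farthest apart were Aged 33 and Aged 34. Aged 34 had the highest leukocyte and stromal sums and the lowest oocyte sum of all ovaries, and leaving it out changed the most calls in Aged+CF vs Aged, from 1 gene to 556 at the adjusted p. The spread within Aged was also wider, with a biological coefficient of variation of 0.378, against 0.209 in Control and 0.193 in Aged+CF.

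Per length, Cdh5 was the most abundant member in Control ovaries, with a mean of 29.5 ± 2.21 FPKM (SD, n = 4). Esam followed at 15.5 ± 1.03 FPKM and Eng at 15.5 ± 1.11 FPKM, and the ranges of this pair overlapped. Tie1 came next at 13.1 ± 1.30 FPKM, below every Eng value. Below it lay Angpt2 at 9.36 ± 1.90 FPKM and Pecam1 at 7.86 ± 1.36 FPKM, which overlapped each other. Tek stood at 4.61 ± 0.498 FPKM, apart from its neighbours in the order. Emcn at 3.60 ± 0.177 FPKM and Angpt1 at 3.11 ± 0.321 FPKM overlapped. Vwf, which encodes the clotting protein stored in endothelial granules, was lowest at 1.89 ± 0.317 FPKM. Cdh5 was also the highest and Vwf the lowest member in the other groups, at 31.6 ± 3.48 and 1.96 ± 1.03 FPKM in Aged ovaries (n = 3) and 32.8 ± 4.27 and 1.75 ± 0.158 FPKM in Aged+CF ovaries (n = 3). In Aged ovaries Emcn, at 6.89 ± 1.71 FPKM, overlapped both Angpt2 above it and Tek below it.

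The comparison of Aged with Control ovaries addressed the effect of age. Most of the endothelial genes were higher in the aged ovaries. Of the 10 members, 4 were called at the adjusted p, all of them higher in Aged: Emcn, Eng, Pecam1 and Tek. Among all genes tested, 11.1% were called. The unadjusted p called 4 members, and 18.2% of all genes. Without the limit on fold, 7 members passed the adjusted p, against 15.4% of all genes. The same 7 members had every Aged ovary above every Control ovary, and 27.5% of all genes had no overlap between these groups in either direction. The median log2 fold change of the members was 0.51, against 0.00 for all genes tested. Scaling by total counts, in which the median of all genes was shifted by -0.13, called 1 member, Emcn, and 2281 of all genes, against 2096 with TMM. Without Aged 33, Control 32 or Control 34 the adjusted p called 2 members, Emcn and Eng, and 9.09%, 5.74% and 5.80% of all genes. Without the fold limit 4 members passed when Control 32 or Control 34 was left out, beside 7.19% and 6.98% of all genes. These are whole ovaries, so more endothelial cells and more RNA per endothelial cell cannot be told apart.

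**Figure D1:**
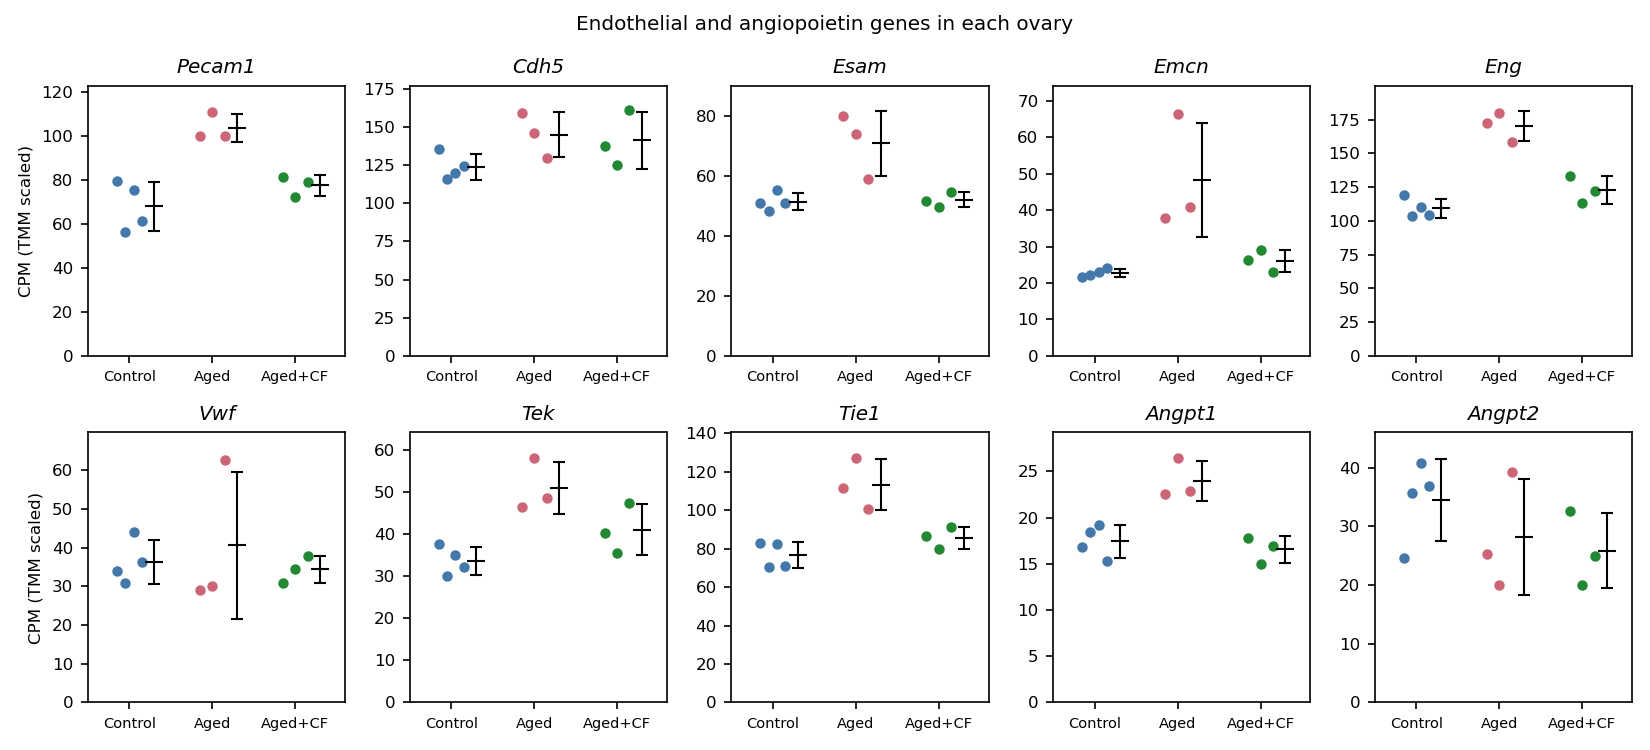
TMM-scaled CPM of the 10 genes in each ovary of Control (n = 4), Aged (n = 3) and Aged+CF (n = 3), with a point for each ovary and the mean ± SD beside the points. Emcn lay between 21.7 and 24.1 CPM in Control, between 37.8 and 66.3 CPM in Aged and between 23.0 and 29.1 CPM in Aged+CF.

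Emcn encodes endomucin, a mucin-like glycoprotein on the surface of capillary and venous endothelium. It stood at 21.7, 22.2, 22.9 and 24.1 CPM in Control 31, 32, 33 and 34, at 37.8, 66.3 and 40.7 CPM in Aged 31, 33 and 34, and at 26.3, 29.1 and 23.0 CPM in Aged+CF 30, 32 and 34. Every Aged ovary lay above all the others, and Aged 33 was the highest. The fold change of Aged over Control was 2.12 (log2 1.09, SE 0.18, 95% interval 0.68 to 1.49, edgeR adjusted p = 0.00772). Without Aged 33 the log2 fold change was 0.82, and Emcn was still called (edgeR adjusted p = 0.00897, range over the alternatives 4.28e-06 to 0.0616).

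Eng encodes endoglin, a co-receptor for ligands of the TGF-beta family on endothelial cells. Its values were 119, 104, 110.2 and 104 CPM in Control 31, 32, 33 and 34, 172, 180.0 and 158 CPM in Aged 31, 33 and 34, and 133, 113 and 122 CPM in Aged+CF 30, 32 and 34. The Aged ovaries stood well clear of the rest, and the Control and Aged+CF ranges overlapped. Eng rose 1.56-fold in Aged (log2 0.64, SE 0.09, 95% interval 0.44 to 0.84), with the smallest adjusted p of the members (edgeR, 0.00497).

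Pecam1 encodes CD31, an adhesion molecule of endothelial junctions that is also carried by platelets and some leukocytes. It measured 79.5, 56.2, 75.6 and 61.2 CPM in Control 31, 32, 33 and 34, 99.9, 111 and 100.1 CPM in Aged 31, 33 and 34, and 81.4, 72.4 and 79.4 CPM in Aged+CF 30, 32 and 34. All Aged ovaries exceeded all Control ovaries, and the Control ovaries fell into a higher and a lower pair. The fold change was 1.52 (log2 0.61, SE 0.12, 95% interval 0.33 to 0.88, edgeR adjusted p = 0.0142). This value lies at the limit of 1.5, and Pecam1 dropped under it without Aged 33 (log2 0.58), without Control 32 (0.52) and without Control 34 (0.56).

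Esam encodes an adhesion molecule of endothelial tight junctions. It was read at 50.9, 48.4, 55.2 and 51.0 CPM in Control 31, 32, 33 and 34, at 79.8, 73.8 and 58.8 CPM in Aged 31, 33 and 34, and at 51.8, 49.6 and 54.6 CPM in Aged+CF 30, 32 and 34. The Aged ovaries were again the highest, with Aged 34 closest to Control, and the Aged+CF values fell within the Control range. Its fold change of 1.38 (log2 0.46, SE 0.11) was under the limit although the edgeR adjusted p was 0.0217. That p was under 0.05 in 10 of 16 alternatives (range 0.00115 to 0.111), and past it without Aged 31 (0.0574), Control 32 (0.0624) or Control 34 (0.0598).

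Cdh5 varied less between the groups. Control 31, 32, 33 and 34 held 136, 116, 119.6 and 125 CPM, Aged 31, 33 and 34 held 159, 146 and 129.9 CPM, and Aged+CF 30, 32 and 34 held 137, 125 and 161 CPM. The 3 groups overlapped, and the highest single value came from Aged+CF 34. The log2 fold change of Aged over Control was 0.23 (SE 0.11, 95% interval -0.02 to 0.48, edgeR adjusted p = 0.197, range over the alternatives 0.0665 to 0.5995), and the interval ends below the fold limit of 1.5. With total count scaling the log2 fold change of Cdh5 was 0.10, at the upper end of that range of p. The difference between Cdh5 and the called members was not tested.

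Vwf had the widest spread in Aged. Its values were 33.8, 30.7, 44.0 and 36.2 CPM in Control 31, 32, 33 and 34, 29.0, 30.1 and 62.5 CPM in Aged 31, 33 and 34, and 30.8, 34.6 and 37.8 CPM in Aged+CF 30, 32 and 34. Aged 34 was more than any other ovary, and the remaining Aged ovaries were under every Control value. The log2 fold change of 0.17 (SE 0.25, edgeR adjusted p = 0.707) rested on Aged 34, without which it was -0.26 (edgeR adjusted p = 0.265, range over the alternatives 0.265 to 0.910). Without Aged 31 it was 0.38 and without Aged 33 it was 0.36. Aged 34 was also the Aged ovary with the highest sum of leukocyte, stromal and oviduct markers, given with the cell type lists, and the part of those cells in the Vwf value was not tested.

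Both angiopoietin receptors were higher in Aged ovaries. Tek, the gene of TIE2, measured 37.6, 29.99, 35.1 and 32.1 CPM in Control 31, 32, 33 and 34, 46.3, 58.0 and 48.5 CPM in Aged 31, 33 and 34, and 40.4, 35.4 and 47.4 CPM in Aged+CF 30, 32 and 34. The Aged range began above the Control range, and Aged+CF 34 lay among the Aged ovaries. Tek rose 1.51-fold in Aged (log2 0.60, SE 0.13, 95% interval 0.30 to 0.89, edgeR adjusted p = 0.0172). As with Pecam1, the fold change was close to the limit and fell under it without Aged 33 (log2 0.52), without Control 32 (0.54) and without Control 34 (0.57). Without Control 32 or Control 34 the edgeR adjusted p of Tek was also past the limit, at 0.0510 and 0.0518 (range over the alternatives 0.000445 to 0.0902).

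Tie1 encodes a receptor that shares its structure with TIE2 and modulates its signal. It stood at 82.9, 70.6, 82.6 and 71.2 CPM in Control 31, 32, 33 and 34, at 112, 127 and 101 CPM in Aged 31, 33 and 34, and at 86.6, 79.6 and 91.0 CPM in Aged+CF 30, 32 and 34. Aged ovaries again lay above all the others. The fold change was 1.47 (log2 0.56, SE 0.11, 95% interval 0.32 to 0.80), under the limit, with an edgeR adjusted p of 0.0111.

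Of the ligands, Angpt1 had a higher mean in Aged and Angpt2 a lower one. Angpt1 measured 16.8, 18.4, 19.2 and 15.3 CPM in Control 31, 32, 33 and 34, 22.5, 26.5 and 22.9 CPM in Aged 31, 33 and 34, and 17.8, 14.9 and 16.9 CPM in Aged+CF 30, 32 and 34. The Aged ovaries were the highest here too, and Control and Aged+CF overlapped. The log2 fold change of Angpt1 was 0.46 (SE 0.12, 95% interval 0.18 to 0.74, edgeR adjusted p = 0.0347), a fold change of 1.37 that was under the limit. Its adjusted p was under 0.05 in 8 of 16 alternatives (range 0.00324 to 0.132), and past it without Aged 33 (0.0691), Control 31 (0.0768), Control 32 (0.0664) or Control 34 (0.0936). Angpt2 stood at 24.6, 35.7, 40.8 and 36.9 CPM in Control 31, 32, 33 and 34, at 25.3, 20.04 and 39.3 CPM in Aged 31, 33 and 34, and at 32.7, 19.99 and 24.98 CPM in Aged+CF 30, 32 and 34. Its groups overlapped, with a low Control ovary (Control 31) and a high Aged ovary (Aged 34). Angpt2 was the single member with a lower mean in Aged, and its log2 fold change of -0.29 (SE 0.26, 95% interval -0.87 to 0.29) did not pass the test (edgeR adjusted p = 0.485). It was -0.07 without Aged 33 and -0.57 without Aged 34, the ends of its range over the alternatives.

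**Figure D2:**
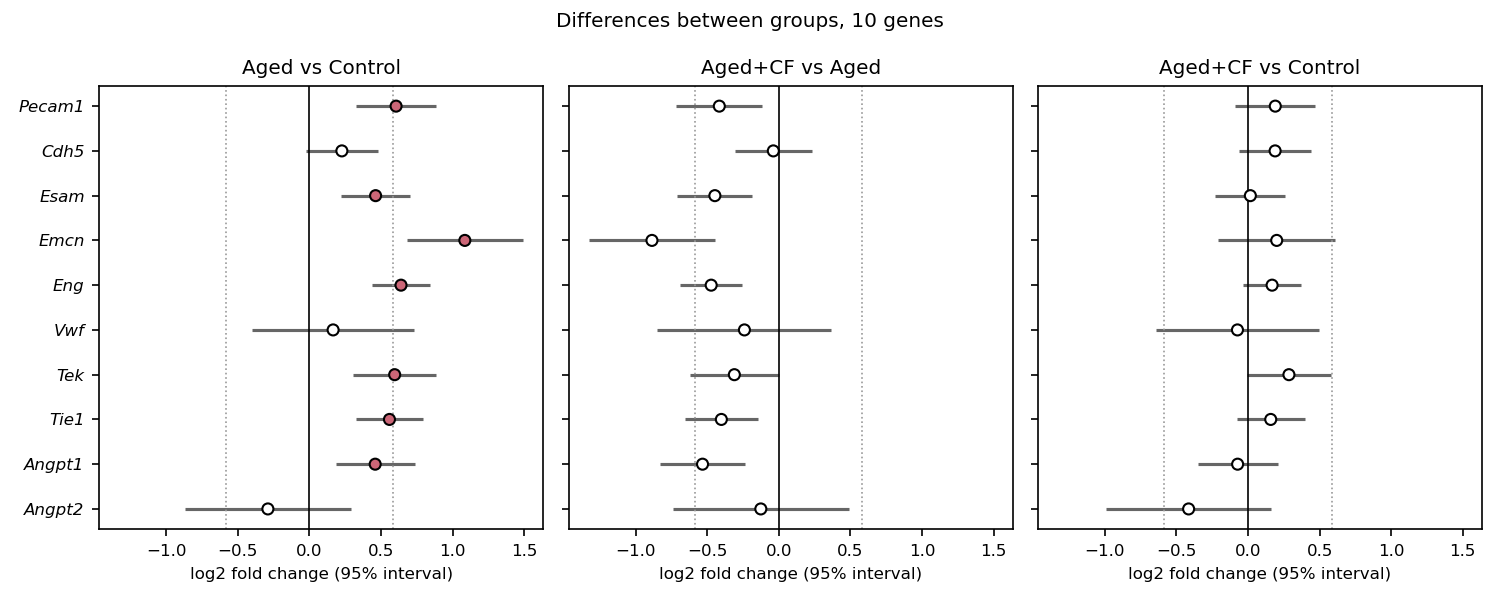
Log2 fold changes of the 10 genes in each comparison with 95% intervals from the edgeR fit to all 10 ovaries. Filled points passed an adjusted p of 0.05, and dotted lines mark the fold limit of 1.5. In Aged vs Control 7 points are filled, and none is in the comparisons with Aged+CF.

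Because angiopoietin 1 and angiopoietin 2 bind the same receptor, the ratio of their FPKM was taken within each ovary, where library scaling has no part. Angpt2 to Angpt1 was 2.23, 2.95, 3.22 and 3.67 in Control 31, 32, 33 and 34, 1.70, 1.15 and 2.61 in Aged 31, 33 and 34, and 2.78, 2.03 and 2.24 in Aged+CF 30, 32 and 34. The highest ratios were in Control and the lowest in Aged, and Aged 34 lay above Control 31. The mean was 3.02 ± 0.606 in Control (SD, n = 4) and 1.82 ± 0.735 in Aged (n = 3), a log2 difference of -0.79 (two-sided exact permutation p = 0.0857, adjusted over 6 tests 0.300). The smallest p that 4 against 3 ovaries allow is 0.02857. Aged+CF had a mean of 2.35 ± 0.387 (n = 3), and its difference from Aged was 0.44 on the log2 scale (exact permutation p = 0.300, adjusted 0.360), where 3 against 3 ovaries cannot go below 0.1. Both differences hung on single Aged ovaries. Without Aged 33 they were -0.49 and 0.15, and without Aged 34 they were -1.08 and 0.74.

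The ratio of Angpt2 to Cdh5, a gene of the cells that release angiopoietin 2, was 0.207, 0.352, 0.388 and 0.337 in Control 31, 32, 33 and 34, 0.181, 0.157 and 0.344 in Aged 31, 33 and 34, and 0.271, 0.182 and 0.176 in Aged+CF 30, 32 and 34. Control 31 and Aged 34 each stood nearer to the other group than to their own, and all groups overlapped. The log2 difference of Aged from Control was -0.55 (exact permutation p = 0.200, adjusted 0.300; -0.32 without Aged 33 and -0.89 without Aged 34), that of Aged+CF from Control was -0.60 (exact permutation p = 0.114, adjusted 0.300), and that of Aged+CF from Aged was -0.05 (exact permutation p = 0.900). The Angpt2 to Angpt1 ratio of Aged+CF differed from Control by -0.35 (exact permutation p = 0.171, adjusted 0.300).

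**Figure D3:**
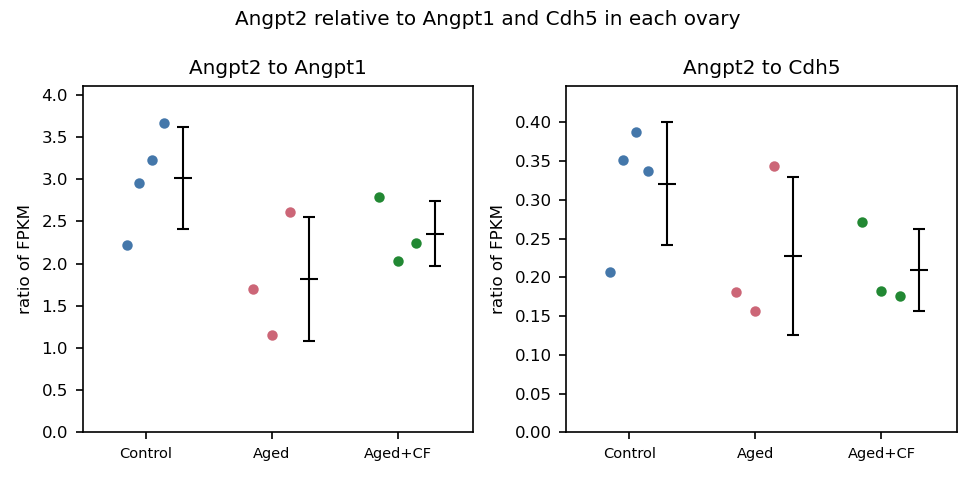
Ratio of FPKM of Angpt2 to Angpt1 and of Angpt2 to Cdh5 in each ovary of Control (n = 4), Aged (n = 3) and Aged+CF (n = 3), with the mean ± SD beside the points. The Angpt2 to Angpt1 ratio ran from 2.23 to 3.67 in Control and from 1.15 to 2.61 in Aged.

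The comparison of Aged+CF with Aged addressed the effect of the extract in aged mice. In CPM the mean of Aged+CF was below that of Aged in all 10 members, with a median log2 fold change of -0.41, against -0.02 for all genes tested. In FPKM the mean of Cdh5 was higher in Aged+CF, at 32.8 against 31.6. The log2 fold change of Cdh5 was positive in 4 of 16 alternatives. At the adjusted p, with or without the fold limit, 0 of 10 members were called by edgeR, as against 0.00528% of all genes, which is 1 gene. The unadjusted p called 1 member, Emcn, and 7.96% of all genes. At an unadjusted p under 0.05 and any fold, 6 members passed, Emcn, Eng, Angpt1, Esam, Tie1 and Pecam1, and 16.3% of all genes. The same 6 had every Aged+CF ovary below every Aged ovary, and 18.6% of all genes had no overlap in either direction. The Wald test of DESeq2 called 1 member, Emcn, at its adjusted p, and 441 (2.33%) of all genes, and without the fold limit 5 members and 773 (4.08%) of all genes passed it. Leaving out Aged 34 changed the calls across the whole table, with 556 genes (2.87%) called by edgeR at the adjusted p, 138 higher and 418 lower. Among them was 1 member, Emcn, and without the fold limit 3 members and 650 (3.36%) of all genes passed. The unadjusted p called 2 members, Emcn and Angpt1, without Aged 31, where 9.53% of all genes were called, and the same 2 without Aged+CF 30, where 6.10% were.

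Emcn had the largest difference among the members, at 26.1 ± 3.05 CPM in Aged+CF (SD, n = 3) and 48.3 ± 15.7 CPM in Aged (n = 3). All 3 Aged+CF ovaries were under the lowest Aged ovary. The log2 fold change was -0.89 (SE 0.20, 95% interval -1.33 to -0.44), and the edgeR adjusted p of 0.161 did not pass. The call changed without Aged 34, where the log2 fold change was -1.01 and the edgeR adjusted p 0.0403, within a range of 0.00556 to 0.728 over the alternatives. Without Aged 33, in which Emcn was highest, the log2 fold change was -0.59.

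Among the other surface genes, Eng had a log2 fold change of -0.47 (SE 0.10, edgeR adjusted p = 0.151). Esam differed by -0.45 (SE 0.12, edgeR adjusted p = 0.169), and Pecam1 by -0.42 (SE 0.13, edgeR adjusted p = 0.205). Cdh5 was nearly level, at -0.04 (SE 0.12, 95% interval -0.30 to 0.23, edgeR adjusted p = 0.900), and Vwf differed by -0.24 (SE 0.27, edgeR adjusted p = 0.688). The Vwf difference turned to 0.20 without Aged 34. Of the receptors, Tie1 differed by -0.40 (SE 0.11, edgeR adjusted p = 0.178) and Tek by -0.31 (SE 0.14, edgeR adjusted p = 0.310). In Tek, Aged+CF 34 overlapped the Aged ovaries. The ligand Angpt1 had a log2 fold change of -0.53 (SE 0.13, 95% interval -0.83 to -0.23, edgeR adjusted p = 0.161), and every Aged+CF ovary was below 18 CPM while every Aged ovary was above 22 CPM. Angpt2 differed by -0.13 (SE 0.28, edgeR adjusted p = 0.851), and its direction turned to 0.17 without Aged 34.

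Aged+CF and Control ovaries were compared last, and this comparison shares its ovaries with the others. By edgeR, 0 of 10 members were called at the adjusted p with or without the fold limit, as against 0.179% of all genes under either rule. The unadjusted p called 0 members and 7.69% of all genes, and 0 members had an unadjusted p under 0.05 at any fold, against 14.3% of all genes. DESeq2 called 0 members, against 2.79% of all genes at its adjusted p and 3.87% without the fold limit. Every member overlapped between the groups, while 21.9% of all genes had no overlap. In CPM the mean of Aged+CF was above that of Control in 7 members and below it in 3, Angpt1, Angpt2 and Vwf. In FPKM the mean of Esam was also below that of Control, at 15.3 against 15.5. Over 16 alternatives the log2 fold change was positive in 14 for Esam and in 2 for Vwf. Tek had the largest positive log2 fold change, 0.29 (SE 0.13, 95% interval -0.01 to 0.58, edgeR adjusted p = 0.361), and Angpt2 the largest negative value, -0.42 (SE 0.26, 95% interval -0.99 to 0.16, edgeR adjusted p = 0.494). The intervals of Emcn, -0.21 to 0.61, and Eng, -0.03 to 0.37, include 0.

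Another 30 endothelial genes outside the members were examined gene by gene. Like the members, they were chosen with earlier results of these data known, so their direction is not a separate test. For this list and those below, the shares of all genes called in Aged vs Control were 11.1% (adjusted p) and 18.2% (unadjusted p). In Aged+CF vs Aged the shares were 0.00528% and 7.96%. All 30 had a higher mean in Aged than in Control, 12 were called higher and 0 lower by edgeR at the adjusted p (13 higher and 0 lower at the unadjusted p), and their median log2 fold change was 0.55. The largest rises were those of Cyyr1 (log2 2.03, edgeR adjusted p = 0.0435), which in Aged 34 lay within the Control range, Gpihbp1, which anchors lipoprotein lipase on capillaries (1.82, 0.00723), and Plvap, a protein of capillary fenestrae (1.43, 0.0134). Cd34, the most abundant of the list, had a log2 fold change of 0.59 (edgeR adjusted p = 0.0780). It stood at 130, 132 and 237 CPM in Aged 31, 33 and 34, and Aged 31 lay within the Control range. The summed level of the list was 1160.2, 987, 1103 and 1005 CPM in Control 31, 32, 33 and 34, 1504, 1775 and 1495 CPM in Aged 31, 33 and 34, and 1233, 1168 and 1197 CPM in Aged+CF 30, 32 and 34. As with most of the members, the Aged ovaries were the highest. In Aged+CF vs Aged, 29 of the 30 had a lower mean, 0 were called by edgeR at the adjusted p and 5 were called lower at the unadjusted p, led by Myct1 (-0.71, edgeR adjusted p = 0.199), Cd34 (-0.66, 0.212) and Egfl7 (-0.65, 0.169). For Cd34 the Aged+CF ovaries, between 95.9 and 112 CPM, lay nearer to Aged 31 and 33 than to Aged 34.

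A further 20 genes of the angiopoietin and TIE pathway were listed, of which Ptprb is also among the 30 other endothelial genes (log2 0.40, edgeR adjusted p = 0.0695). Their median log2 fold change in Aged vs Control was 0.02, with 0 called higher and 2 lower by edgeR at either p. Of all genes tested, 11.1% were called at the adjusted p and 18.2% at the unadjusted p. The difference of this list from the members was not tested. The 2 pathway genes called were Foxo1, a transcription factor that AKT holds out of the nucleus (log2 -1.21, edgeR adjusted p = 0.0212), and Grb14, an adaptor that binds activated TIE2 (-1.09, 0.0117). Both genes are also expressed outside endothelium. Itgb1, an integrin chain, was the most abundant (0.12, edgeR adjusted p = 0.423). Angpt4, the remaining angiopoietin gene, had a log2 fold change of 0.00 with age (edgeR adjusted p = 0.9955) and of -0.88 with CEFFE, where it was called at the unadjusted p (edgeR adjusted p = 0.171). At that p 2 pathway genes were called lower in Aged+CF, Angpt4 and Klf2 (-0.77, edgeR adjusted p = 0.161), and 2 higher, Pik3r1 (0.78, 0.211) and Grb14 (0.72, 0.192), whereas 0 were called by edgeR at the adjusted p.

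Of 10 genes of the VEGF system, 2 receptors were called higher in Aged at the adjusted p, Flt1 (log2 0.94, edgeR adjusted p = 0.0185) and Kdr (0.83, 0.0172). The unadjusted p called 3 higher, these and Vegfa (0.92, edgeR adjusted p = 0.0707), for which Aged 34 lay within the Control range. Of all genes tested, 11.1% were called at the adjusted p and 18.2% at the unadjusted p. Vegfa stood at 144, 234 and 79.7 CPM in Aged 31, 33 and 34, with Aged 33 well above the others. Nrp2 was the most abundant (-0.06, edgeR adjusted p = 0.773), and with CEFFE 2 were called lower at the unadjusted p, Vegfa (-0.81, edgeR adjusted p = 0.276) and Flt1 (-0.67, 0.216). For both Vegfa and Flt1, Aged 34 lay within the Aged+CF range.

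Lists for kinds of vessel gave mixed directions in Aged vs Control, where 11.1% of all genes were called at the adjusted p and 18.2% at the unadjusted p. Of 8 rows for 7 lymphatic genes, 2 were called lower, Reln (log2 -0.83, edgeR adjusted p = 0.0390) and Pdpn (-0.82, 0.0390), both made by other ovarian cells too, and Flt4 was the most abundant (0.26, 0.137). Lyve1, also on the lymphatic list, was called lower in Aged+CF vs Aged at the unadjusted p (-0.76, edgeR adjusted p = 0.301), as was 1 row of Ccl21a (-0.71, 0.272). Of 7 arterial genes, Dll4 was called higher (0.60, edgeR adjusted p = 0.0328) and Sema3g, the most abundant, lower (-0.98, 0.0301), and the unadjusted p added Gja5 (0.90, 0.0644) to those higher. Hey1 was called lower in Aged+CF vs Aged at the unadjusted p (-0.65, edgeR adjusted p = 0.205). Of 4 venous genes tested of 5, edgeR called 0 at either p in Aged vs Control. Nr2f2 was the most abundant of them (-0.08, edgeR adjusted p = 0.748), and Ackr1 was called lower in Aged+CF vs Aged at the unadjusted p (-2.76, 0.268). The Ackr1 difference rested on Aged 34, at 9.65 CPM, since Aged 31 and 33 held 0.477 and 0.423 CPM and overlapped Aged+CF. For Lyve1 and the called row of Ccl21a, too, Aged 34 was the highest, at 32.8 and 9.32 CPM, and the other Aged ovaries overlapped Aged+CF. Aged 34 also had the highest leukocyte sum, and the part of leukocytes in these values was not tested. The list for tip cells, the endothelial cells at the front of a sprout, held 6 genes and included Angpt2, its most abundant gene, and Dll4, which is also on the arterial list. There 2 were called higher in Aged, Esm1 (1.94, edgeR adjusted p = 0.0334) and Dll4, and 3 at the unadjusted p.

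Pericytes, which wrap capillaries and make angiopoietin 1, were followed through 12 mural genes. In Aged vs Control edgeR called 0 of them at the adjusted p and 2 higher at the unadjusted p, the pericyte genes Higd1b (log2 0.80, edgeR adjusted p = 0.114) and Rgs5 (0.62, 0.138), and the median log2 fold change was 0.18. The shares of all genes called were 11.1% at the adjusted p and 18.2% at the unadjusted p. Acta2, a smooth muscle gene and the most abundant, had a log2 fold change of -0.27 (edgeR adjusted p = 0.467). Rgs5 was called lower in Aged+CF vs Aged at the unadjusted p (-0.72, edgeR adjusted p = 0.265). In Aged 34, at 98.6 CPM, Rgs5 lay within both the Control and the Aged+CF ranges. The summed level was 2147, 2103, 2358 and 2256 CPM in Control 31, 32, 33 and 34, 1703, 1849 and 2883 CPM in Aged 31, 33 and 34, and 1943, 1496 and 2076 CPM in Aged+CF 30, 32 and 34. Aged 34 was the highest. Most of this sum came from the smooth muscle genes Acta2, Myh11 and Tagln, with means of 699, 554 and 329 CPM in Control.

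Markers of several other cell types also differed between the groups, and their part in the differences of the members was not tested. Among 7 steroidogenic genes of theca and luteal cells, 6 were called higher and 0 lower with age, led by Star (log2 2.83, edgeR adjusted p = 0.0194), Lhcgr (1.80, 0.0127) and Scarb1 (1.72, 0.0329), with Cyp11a1 the most abundant (1.47, 0.0158). Their sum was 12386, 8870.3, 10839 and 6849 CPM in Control 31, 32, 33 and 34, 27674, 36577 and 16635 CPM in Aged 31, 33 and 34, and 14437, 19723 and 13995 CPM in Aged+CF 30, 32 and 34. Aged 33 had the highest sum, and Emcn, Tek, Tie1 and Angpt1 were highest there in both CPM and FPKM. Eng and Pecam1 were highest in Aged 33 in CPM, but in FPKM it was the lowest Aged ovary for both, at 21.4 and 10.8. Among Aged ovaries, Cdh5 and Esam were highest in Aged 31, and Vwf and Angpt2 in Aged 34. Aged+CF 32 had the highest sum of its group. Emcn was highest of the group there, whereas Tek, Tie1, Angpt1, Angpt2, Eng, Pecam1, Cdh5 and Esam were lowest. In Aged+CF vs Aged 2 of the 7 steroidogenic genes were called lower at the unadjusted p, Cyp17a1 (-2.79, edgeR adjusted p = 0.269) and Lhcgr (-2.07, 0.150). Cyp17a1 varied widely in Aged, at 16.9, 146 and 504 CPM in Aged 31, 33 and 34.

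Blood and immune markers were also higher in Aged. Of 8 tested genes of red cells and platelets, 5 were called higher in Aged and 0 lower, led by the globins Hbb-bs (log2 2.43, edgeR adjusted p = 0.00448), Hbb-bt (2.34, 0.00589) and Hba-a1 (2.29, 0.00559), the last being the most abundant. Their sum was 89.3, 121, 96.6 and 85.9 CPM in Control 31, 32, 33 and 34, 426, 647 and 281 CPM in Aged 31, 33 and 34, and 156, 122 and 270.5 CPM in Aged+CF 30, 32 and 34. The genes called were those of red cells, and 2 of the 5 platelet genes were too low to be tested. Of 10 leukocyte genes 7 were called higher (8 at the unadjusted p) and 0 lower, led by Cd79a (2.89, edgeR adjusted p = 0.0212), Cd3e (2.29, 0.0107) and Lyz2 (1.57, 0.00772), the most abundant. The leukocyte sum was 384, 412, 436 and 397 CPM in Control 31, 32, 33 and 34, 676, 699 and 1430.4 CPM in Aged 31, 33 and 34, and 623, 595 and 654 CPM in Aged+CF 30, 32 and 34. Every Aged+CF ovary was above every Control ovary in this sum, as in the blood, steroidogenic and other endothelial sums. In Aged+CF vs Aged the unadjusted p called 4 blood genes lower, led by Hba-a2 (-1.58, edgeR adjusted p = 0.161), Hbb-bs (-1.47, 0.161) and Hba-a1 (-1.33, 0.175), and 3 leukocyte genes, Cd79a (-2.16, 0.210), Cd3e (-1.36, 0.210) and Lyz2 (-0.81, 0.222). Cd79a stood at 1.31, 1.13 and 7.55 CPM in Aged 31, 33 and 34. Cd3e, at 3.46, 2.26 and 8.05 CPM, and Lyz2, at 398, 437 and 958 CPM, were likewise highest in Aged 34.

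Oocyte markers went the other way. Of 9 genes 8 were called lower in Aged than in Control (9 at the unadjusted p), led by Nlrp5 (log2 -2.97, edgeR adjusted p = 0.0155), Zp3 (-2.84, 0.0199) and Zp2 (-2.775, 0.0269), with Gdf9 the most abundant (-2.48, 0.0145). Their sum was 334, 458, 354 and 449 CPM in Control 31, 32, 33 and 34, 95.2, 84.4 and 12.0 CPM in Aged 31, 33 and 34, and 148, 127 and 198 CPM in Aged+CF 30, 32 and 34. In Aged+CF vs Aged 3 were called higher at the unadjusted p, Nlrp5 (1.53, edgeR adjusted p = 0.272), Zp1 (1.44, 0.285) and Ooep (0.98, 0.175). Nlrp5 stood at 14.7, 8.89 and 0.937 CPM in Aged 31, 33 and 34, and Zp1 at 8.05, 5.43 and 0.607 CPM. Of 8 granulosa genes edgeR called 0 in Aged vs Control at the adjusted p and 4 lower at the unadjusted p, with Inha the most abundant (-0.53, edgeR adjusted p = 0.174). Fshr was called higher in Aged+CF vs Aged at the unadjusted p (0.85, edgeR adjusted p = 0.234). The granulosa sum was 4318, 7224, 6026 and 5939 CPM in Control 31, 32, 33 and 34, 3407, 3790.0 and 3223 CPM in Aged 31, 33 and 34, and 4145, 2379 and 4068 CPM in Aged+CF 30, 32 and 34.

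Stromal (7 genes), surface epithelial (8 genes) and oviduct (5 genes, 4 of them tested) lists had 0 genes called by edgeR at either p, both with age and with CEFFE. Their most abundant genes were Col1a2 (Aged vs Control log2 -0.55, edgeR adjusted p = 0.240), Upk3b (-0.19, 0.899) and Ovgp1 (0.11, 0.978). The stromal sum was highest in Aged 34 at 5547 CPM and lowest in Aged 33 at 1860.5 CPM, and the surface epithelial sum was likewise highest in Aged 34 at 352 CPM and lowest in Aged 33 at 43.9 CPM. The oviduct sum was 387 CPM in Control 33 and 301 CPM in Aged 34, and between 1.69 and 32.5 CPM in the other ovaries. Control 33 and Aged 34 were also the highest ovaries of their groups for Vwf and for Angpt2. No gene of these cell type lists was at 0 counts in every ovary. The part of any of these cells in the differences of the members was not tested.

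Some of the members varied together from ovary to ovary and others did not. Over the 10 ovaries, Pearson's r of log2 CPM was 0.963 between Eng and Tie1 and 0.948 between Tek and Tie1, and after the group means were taken off it was 0.7998 and 0.851. Emcn fell out of step within groups, with r of 0.878 with Eng over all ovaries and 0.154 after the group means were taken off. Angpt2 was negative with Cdh5 (-0.541), Tie1 (-0.445), Tek (-0.441), Emcn (-0.397), Pecam1 (-0.379), Eng (-0.348) and Esam (-0.330). Vwf was close to 0 with Eng (-0.00712) and Tie1 (-0.0216), and within groups it was negative with Esam (-0.611). Angpt2 and Vwf were positive with each other, at 0.527 and, within groups, 0.605. These coefficients describe 10 libraries in 3 groups and carry no test.

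Among 16734 other genes with a mean of at least 1 CPM, those closest to Tek over the 10 ovaries were Mmrn2, an endothelial gene (r = 0.957), Rgs4 (0.941) and Fam13c (0.937). Within groups these coefficients were 0.839, 0.802 and 0.746. Closest to Cdh5 were Gm8717 (r = 0.942), Klhl9 (0.900) and Cd83 (0.884), with 0.909, 0.824 and 0.839 within groups. Angpt1 was followed most closely by Srcin1 (r = 0.956), Mtif3 (0.956) and Gstm7 (0.952), with 0.955, 0.816 and 0.735 within groups. For Angpt2 the closest were Tmem41a (r = 0.954), Rnf144b (0.946) and Ap1m2 (0.941), with 0.941, 0.946 and 0.947 within groups. With so many genes and 10 ovaries high coefficients are found for most patterns, and no test was made.

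In GENCODE M21 on GRCm38 the members lie on 8 chromosomes. Tek (chr4:94739289-94874976, plus strand) and Tie1 (chr4:118471191-118490061, minus strand) share a chromosome, as do Angpt2 (chr8:18690263-18741562, minus strand) and Cdh5 (chr8:104101625-104144511, plus strand). The remaining called members are Emcn (chr3:137341067-137432185, plus strand), Eng (chr2:32646595-32682669, plus strand) and Pecam1 (chr11:106654217-106750628, minus strand). Angpt2 lies wholly inside Mcph1 on the opposite strand, and whether the counting used strand is not given in the sources used here, so reads of the pair cannot be told apart in exons or retained introns. Mcph1 held 4006 counts over all ovaries and Angpt2 5366, and the log2 fold change of Mcph1 was -0.72 with age (edgeR adjusted p = 0.0853) and 0.18 with CEFFE (0.766). Eng shares 61 bases with Fpgs on the opposite strand (log2 -0.12 in Aged vs Control, edgeR adjusted p = 0.563). The antisense genes Gm29682 at Cdh5 and Gm17473 at Angpt1 held 222 and 42 counts over all ovaries, against 23991 and 3350 for the members.

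The sequences before the gene starts are shown for members whose adjusted p passed in Aged vs Control and for which a sequence was given. The promoter table of RefSeq on GRCm38.p6 matched 4 of the 10 members, Emcn, Eng, Tek and Tie1, and the 250 bases before the start that RefSeq gives each gene are printed 5′ to 3′ on the strand of the gene. Emcn is from chr3:137340828-137341077 (plus strand), Eng from chr2:32646345-32646594 (plus strand), Tek from chr4:94739039-94739288 (plus strand) and Tie1 from chr4:118489850-118490099 (minus strand). The starts of RefSeq and GENCODE differ, so 212 of the 250 bases of Tie1 and 11 of those of Emcn lie inside the gene as GENCODE places it, and 0 of those of Eng and Tek do. Capitals mark AGGAAG, or its reverse complement, which forms part of some binding sites of ETS factors, a family with known roles in endothelial genes.
Emcn: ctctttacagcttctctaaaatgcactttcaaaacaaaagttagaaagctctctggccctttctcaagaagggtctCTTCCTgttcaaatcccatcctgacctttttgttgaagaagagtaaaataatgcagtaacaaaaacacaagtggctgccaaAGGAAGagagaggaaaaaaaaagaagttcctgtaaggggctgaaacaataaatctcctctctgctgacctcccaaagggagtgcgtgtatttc
Eng: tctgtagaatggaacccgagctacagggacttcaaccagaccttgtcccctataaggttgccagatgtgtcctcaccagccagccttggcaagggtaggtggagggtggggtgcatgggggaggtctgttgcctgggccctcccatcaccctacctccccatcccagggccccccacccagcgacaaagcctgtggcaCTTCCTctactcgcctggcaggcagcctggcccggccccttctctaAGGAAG
Tek: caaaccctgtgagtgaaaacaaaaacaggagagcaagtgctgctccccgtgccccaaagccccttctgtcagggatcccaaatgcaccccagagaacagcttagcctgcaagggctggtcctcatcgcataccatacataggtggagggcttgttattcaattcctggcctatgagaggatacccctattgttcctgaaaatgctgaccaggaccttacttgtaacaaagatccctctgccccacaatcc
Tie1: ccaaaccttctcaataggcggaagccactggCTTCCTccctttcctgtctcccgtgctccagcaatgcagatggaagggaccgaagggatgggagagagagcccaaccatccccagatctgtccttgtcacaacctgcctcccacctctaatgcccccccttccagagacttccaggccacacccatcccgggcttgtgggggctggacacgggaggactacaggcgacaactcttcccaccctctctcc
Emcn held 2 matches of these letters, Eng 2, Tie1 1 and Tek 0. Other forms of ETS sites were not searched for. Of all 32851 promoters of this length in the table, 29.5% held at least 1 match. The forkhead motif GTAAACA, searched on both strands in the same way, was in 0 of the 4 windows and in 3.17% of all promoters. A match describes the letters in these windows only.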

How the data were processed

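RNA of 10 ovaries from 4 Control, 3 Aged and 3 Aged+CF mice was used, grouped by the sample labels. The raw counts per gene were deposited by the authors after alignment with TopHat; the processing notes also name Cufflinks 2.1.1 and GRCm38.p4, and the counting tool and strand setting are not given in the sources used here. FPKM values were deposited by the authors too, and all 276532 values above 0 equalled count by length and library total within 0.001. Of 55487 genes, 18869 had no count. Counts were analysed with edgeR 4.0.16 in R 4.3.3 (filterByExpr, TMM, quasi-likelihood F test, a mean per group), which tested 18956 genes. Correlations used log2 CPM with a prior count of 2. Ratios of FPKM were compared with exact permutation tests. The procedure was tested on simulated data. Libraries of a group were checked for duplication in 12 pairs, and none was found. Alternatives were DESeq2 1.42.0, its size factors, no filter, only the 2 groups compared, the replicate number as a block and leaving out each ovary. Total count scaling and the rule without a fold limit were added after the data were seen. The members and lists were chosen with earlier results of these data known. Besides the members, up to 3 called genes with the largest rises and falls and the most abundant gene of each list are named, with the 3 genes most correlated with each of 4 members. Genes that overlap a member, Ptprb, Higd1b, Myh11 and Tagln were named after their values were seen.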

Additional observations from a re-analysis of the deposited data

Results flagged for a closer look

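Among 28 groups of Control values tested, the gap of the farthest ovary to its nearest neighbour, divided by the whole range, passed the 95% critical value of Dixon for 4 ovaries in 2 sums of marker genes. Chance gives about 1 in 20 such groups. The summed arterial markers were 235, 233, 235 and 257 CPM in Control 31, 32, 33 and 34, with Control 34 far from the others (0.915 of the range). The summed oviduct markers were 3.38, 3.05, 387 and 10.3 CPM, with Control 33 far from the others (0.981 of the range). Whether these cells bear on the values of the 10 genes was not tested.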

How the results depend on the processing

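Over 16 alternatives the log2 fold change of Aged vs Control kept its direction for all members but Vwf. In that comparison the replicate block called 0 members at the adjusted p, 2 at the unadjusted p and 0 without the fold limit, beside 0.422%, 15.7% and 0.422% of all genes, and total count scaling called 1 at either p, beside 2281 and 3498 genes in all. Leaving out an ovary gave 2 to 6 called at either p and 4 to 7 without the fold limit, while the share of all genes ran from 5.74% to 16.1% at the adjusted p, from 16.2% to 22.1% at the unadjusted p and from 6.98% to 22.3% without the fold limit. The lowest counts at the adjusted p, 2 each (Emcn and Eng), came without Aged 33, Control 32 or Control 34. For Aged+CF vs Aged, the Wald test of DESeq2 called 1 member at the adjusted p and 5 without the fold limit, beside 2.33% and 4.08% of all genes. Leaving out an ovary gave 0 to 1 at the adjusted p, 1 to 2 at the unadjusted p and 0 to 3 without the fold limit, with 1 and 3 coming without Aged 34. The share of all genes ran from 0.00510% to 2.87%, from 5.95% to 12.2% and from 0.00510% to 3.36%. For Aged+CF vs Control the replicate block called 1 member, Angpt2, at the unadjusted p, beside 6.92% of all genes.

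Some small differences changed sign. In Aged+CF vs Aged, Cdh5 stood at 0.13 with the replicate block and 0.0544 with total count scaling, and ran from -0.153 to 0.0444 when an ovary was left out. Under the same omissions Vwf ran from -0.44 to 0.20 and Angpt2 from -0.34 to 0.17. The Angpt2 to Cdh5 ratio ran from -0.28 to 0.29. In Aged vs Control Vwf ran from -0.26 to 0.38. In Aged+CF vs Control Esam stood at -0.0215 with total count scaling and ran from -0.0125 to 0.0524, and Vwf from -0.145 to 0.0344. The cause was not tested.

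Same-number correlations between groups ran from -0.18 to 0.15, and Control 33 correlated more with Aged 34 (0.19) than with Aged 33 (-0.18). These values gave no sign that equal replicate numbers mark pairs. With so few ovaries sharing a number, they cannot exclude it. Total count scaling shifted the median of all genes by -0.13 in Aged vs Control, and the share of genes called higher there at the adjusted p went from 45.2% (948 higher, 1148 lower) to 28.5% (650 higher, 1631 lower). At the unadjusted p it went from 48.2% to 33.4%, and in Aged+CF vs Aged from 49.1% to 66.2%. Angpt1, the member with the fewest counts over all ovaries, held 3350.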
